A study of Rattus norvegicus with 40 samples.

Results

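The HCN pacemaker channel genes Hcn2, Hcn3 and Hcn4 were examined in rat dorsal root ganglia (DRGs) of the spinal nerve ligation (SNL) model, in which a tied nerve leads to neuropathic pain. The members were the genes of this family that the platform annotation names alone on a probe set. They were 3 of 14217 named genes and 3 of 31042 probe sets, with 1 probe set each (1370966_at for Hcn2, 1369416_at for Hcn3 and 1387997_at for Hcn4).

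All rats were male Sprague-Dawley animals. In SNL rats the left L5 spinal nerve was tied tightly beyond the ganglion, and in sham rats the same operation was done without the ligature. DRGs were taken 4 weeks after surgery, and RNA of each ganglion was hybridised to an array of its own. The 40 arrays fall into 8 groups of 5, the ipsilateral and contralateral L4 and L5 DRGs of 5 SNL rats (numbers 4, 8, 9, 18 and 48) and of 5 sham rats (numbers 1, 14, 17, 22 and 23). The ligated ganglion is therefore ipsilateral L5, and ipsilateral L4 of the same rats is its neighbour with an intact spinal nerve. Every ganglion is whole tissue from an operated animal, since no rat was left unoperated, and contralateral ganglia come from the same animals as ipsilateral ones.

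HCN channels open when the membrane is hyperpolarised and carry an inward cation current, called Ih, that brings the cell back towards its firing threshold. Binding of cAMP to their intracellular domain eases opening, strongly in HCN2 and HCN4 and little in HCN3. HCN2 is known from DRG neurons of small diameter, while HCN4 is the main pacemaker subunit of the sinus node. In sensory neurons Ih is studied as a source of spontaneous firing after nerve injury.

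All 3 probe sets were dim. On all 40 arrays each of them lay under the median signal of the array, which ran from 28.6 to 55.6 units on the linear scale. Hcn2 had a lowest signal of 1.55, a median of 12.0 and a highest of 31.3 units over the 40 arrays, Hcn3 had 1.03, 14.7 and 49.6 units, and Hcn4 had 0.556, 4.36 and 15.3 units. On the log2 scale the mean level of Hcn2 was above that of 19.6% of the probe sets, that of Hcn3 above 24.7% and that of Hcn4 above 5.93%. Signals of different probe sets depend on their oligonucleotides, so these values do not order the genes by RNA amount. Detection calls were not used here, and whether each probe set was above its background was not determined.

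The values below are linear signals as deposited, and differences are given on the scale log2(signal + 16), which understates the change of dim probe sets. A difference was called when its adjusted p was under 0.05 in limma with Benjamini-Hochberg adjustment over all probe sets. In whole ganglia, fewer cells of a type and less RNA per cell cannot be told apart. Of 12 comparisons of sides (3 genes in 4 pairs of groups) 1 was called, Hcn3 in sham L4. Over all probe sets 47.2% were called in SNL L5, 19.1% in SNL L4, 50.3% in sham L5 and 27.1% in sham L4.

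**Figure D1:**
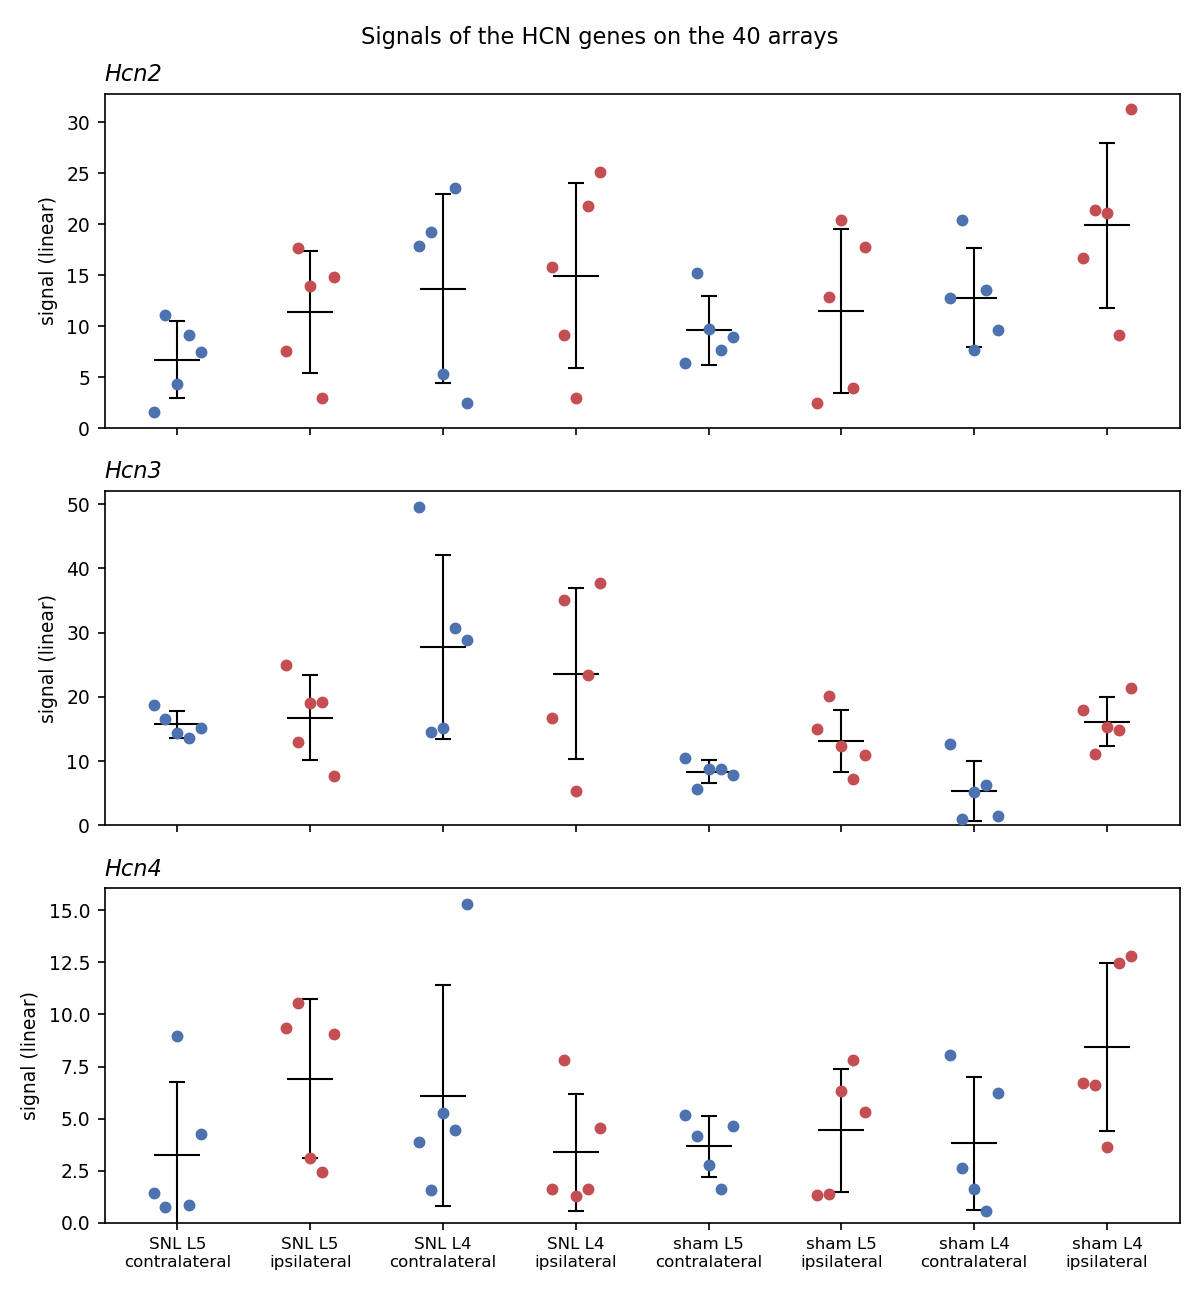
Linear signal of Hcn2, Hcn3 and Hcn4 (1 panel each, with its own scale) on every array, by group. Points are arrays (blue contralateral, red ipsilateral), horizontal bars the group mean and error bars the SD of 5 rats. Sides overlap in every pair, and the Hcn3 signals of SNL L4 contralateral ganglia lie above those of sham L4 contralateral ganglia.

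In the ligated ganglion no member was called different from its contralateral partner, against 47.2% of all probe sets called in SNL L5. The Hcn2 signals of rats 4, 8, 9, 18 and 48 were 7.59, 17.6, 13.9, 2.98 and 14.8 in ipsilateral L5 and 1.55, 11.1, 4.32, 9.15 and 7.46 in contralateral L5. Ipsilateral Hcn2 was the higher value in 4 of 5 rats, rat 18 being the exception, and the groups overlapped. The log2 difference of Hcn2 was 0.26 (95% interval -0.08 to 0.59, adjusted p = 0.197, limma).

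Hcn3, the subunit least sensitive to cAMP, gave 24.9, 13.0, 19.1, 19.2 and 7.75 units in ipsilateral L5 and 18.8, 16.6, 14.4, 13.6 and 15.1 units in contralateral L5. The contralateral values lay inside the range of the ipsilateral ones. Its log2 difference was 0.03 (95% interval -0.26 to 0.31, adjusted p = 0.898, limma), and it turned to -0.12 under quantile normalization.

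Hcn4 gave 9.36, 10.6, 3.12, 2.45 and 9.05 units in ipsilateral L5 and 1.45, 0.777, 8.98, 0.866 and 4.25 units in contralateral L5. It was higher ipsilaterally in 4 of 5 rats, all but rat 9. The log2 difference was 0.25 (95% interval -0.04 to 0.54, adjusted p = 0.147, limma). On the log2(signal + 1) scale, which weighs low values more, the same difference was 1.07 with an interval from -0.07 to 2.20, so a large rise of Hcn4 lay within the interval.

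A single array decided the side of the threshold for 2 genes in SNL L5. Without the ipsilateral array of rat 18, Hcn2 differed by 0.38 (adjusted p = 0.0431, limma). Without the contralateral array of rat 9, Hcn4 differed by 0.35 (adjusted p = 0.0423, limma). Rises of Hcn2 and Hcn4 were thus called only with those arrays left out.

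Markers of neurons and of other cell types moved with the side in SNL L5, where 47.2% of all probe sets were called. Of 12 DRG neuron markers 4 were higher and 7 lower (1 and 8 with equal array medians). Their sums overlapped, at 15215 to 17738.5 units ipsilaterally and 14536 to 17536 units contralaterally. All 8 nociceptor markers measured were lower ipsilaterally, with summed signals of 3363 to 3555 units against 8648 to 9380 units, and 8 of 11 markers of large myelinated neurons were lower, with sums of 6790 to 7685 against 10969 to 13757 units. Macrophage markers were higher for 7 of 9 genes (3329 to 3733 against 669 to 724 units) and fibroblast markers for 6 of 6 (9668 to 11085 against 3378 to 3635 units). All 5 muscle markers were lower, since contralateral L5 ganglia of SNL rats had summed muscle signals of 2550 to 2962 units and ipsilateral ones 120 to 155 units. No marker of these lists was listed at 0. The log2 ratio of the GAPDH 3′ to 5′ probe sets, a measure of RNA integrity, was 1.61 ipsilaterally and 0.97 contralaterally (exact permutation test, p = 0.00794, the smallest that 5 against 5 allow). The part of these differences in the values of the HCN genes was not tested.

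In the neighbouring L4 ganglion of SNL rats no member was called either, against 19.1% of all probe sets. The Hcn2 signals of rats 4, 8, 9, 18 and 48 were 15.8, 9.10, 2.99, 21.8 and 25.1 in ipsilateral L4 and 17.9, 19.2, 5.27, 23.6 and 2.44 in contralateral L4. In 4 of 5 rats Hcn2 was lower ipsilaterally, while rat 48 went the other way by the widest gap. The log2 difference was 0.07 (95% interval -0.46 to 0.60, adjusted p = 0.892, limma).

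Hcn3 in SNL L4 had the widest spread of any group, with 16.7, 35.1, 5.30, 23.4 and 37.7 units ipsilaterally and 49.6, 14.6, 15.2, 30.8 and 28.8 units contralaterally. The sides overlapped over most of their range, and the log2 difference was -0.16 (95% interval -0.71 to 0.39, adjusted p = 0.734, limma). Hcn4 gave 1.63, 7.81, 1.29, 1.60 and 4.56 units ipsilaterally and 3.90, 1.57, 5.26, 4.47 and 15.3 units contralaterally. It was lower ipsilaterally in 4 of 5 rats, with a log2 difference of -0.17 (95% interval -0.54 to 0.19, adjusted p = 0.552, limma).

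RNA integrity and other cell types also moved with the side in SNL L4, where 19.1% of all probe sets were called. Of 12 DRG neuron markers 2 were higher and 4 lower, with overlapping sums of 18552 to 20546 against 18019 to 19377 units. The GAPDH 3′ to 5′ log2 ratio was 2.35 ipsilaterally and 1.40 contralaterally (exact permutation test, p = 0.00794), the widest gap of the 4 comparisons of sides. Of 4 blood cell markers 3 were lower (sums of 918 to 1156 against 2785 to 3164 units), while 5 of 6 fibroblast markers (6841 to 7197 against 4166 to 4738 units) and 4 of 9 macrophage markers (1175 to 1266 against 676 to 764 units) were higher. With equal array medians 3 of the fibroblast and 2 of the macrophage markers were called. Their part in the values of the HCN, cAMP and receptor genes in SNL L4 was not tested.

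In sham L4, Hcn3 was higher ipsilaterally, and this was the call among the 12. The Hcn3 signals of rats 1, 14, 17, 22 and 23 were 18, 11.0, 15.4, 14.9 and 21.3 in ipsilateral L4 and 12.7, 1.03, 5.18, 6.28 and 1.53 in contralateral L4. It was higher ipsilaterally in 5 of 5 rats, and the groups overlapped through the contralateral array of rat 1 and the ipsilateral array of rat 14. The log2 difference was 0.61 ± 0.14 (SE, n = 5 rats, 95% interval 0.31 to 0.91, adjusted p = 0.00526, limma), in a comparison in which 27.1% of all probe sets were called. The exact two-sided permutation test gave p = 0.0159, and 0.190 after adjustment over the 12 comparisons.

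The Hcn3 call in sham L4 was lost under quantile normalization, where the log2 difference was 0.49 (adjusted p = 0.0564, limma), and held with arrays scaled to equal medians. In the same comparison the median log2 difference of all probe sets was 0.06 and that of the probe sets below the median level, among which all 3 members lie, was 0.14. The GAPDH 3′ to 5′ log2 ratio was 0.43 higher ipsilaterally (exact permutation test, p = 0.00794), and array medians were 36.1 to 38.9 against 30.7 to 32.7 units. Markers of DRG neurons were higher for 7 of 12 genes and lower for 1, with sums of 18501 to 19709 against 12849 to 15306 units, and with equal array medians 5 were higher and 3 lower. The part of these shifts in the Hcn3 difference was not tested.

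Hcn2 in sham L4 gave 16.7, 21.4, 21.1, 9.08 and 31.3 units ipsilaterally and 12.8, 20.4, 7.65, 13.5 and 9.64 units contralaterally. It was higher in 4 of 5 rats, with a log2 difference of 0.30 (95% interval -0.04 to 0.64, adjusted p = 0.173, limma), and without the ipsilateral array of rat 22 it was called at 0.43 (adjusted p = 0.0469, limma). Hcn4 gave 6.73, 6.60, 3.63, 12.5 and 12.8 units ipsilaterally and 8.07, 2.63, 1.61, 0.556 and 6.21 units contralaterally. It too was higher in 4 of 5 rats, and its log2 difference was 0.30 (95% interval 0.02 to 0.59, adjusted p = 0.105, limma).

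In sham L5, with 50.3% of all probe sets called, no member was. The Hcn2 signals of rats 1, 14, 17, 22 and 23 were 2.44, 12.9, 20.4, 3.95 and 17.8 ipsilaterally and 6.34, 15.2, 9.75, 7.71 and 8.92 contralaterally, so that the ipsilateral values lay on both sides of the contralateral ones. The log2 difference of Hcn2 was 0.06 (95% interval -0.30 to 0.42, adjusted p = 0.789, limma). Hcn4 gave 1.34, 1.40, 6.34, 7.83 and 5.30 units ipsilaterally and 5.16, 4.17, 2.78, 1.61 and 4.66 units contralaterally, a similar picture with a log2 difference of 0.05 (95% interval -0.16 to 0.25, adjusted p = 0.714, limma).

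Hcn3 in sham L5 gave 15.0, 20.2, 12.3, 7.24 and 10.9 units ipsilaterally and 10.5, 5.62, 8.79, 8.83 and 7.90 units contralaterally. It was higher ipsilaterally in 4 of 5 rats, and its log2 difference was 0.25 (95% interval 0.02 to 0.48, adjusted p = 0.0678, limma). Without the ipsilateral array of rat 22 it was called at 0.33 (adjusted p = 0.0145, limma), and under quantile normalization it was -0.05. In this comparison the scaling moved the median of all probe sets from 0.06 as deposited to -0.11 with equal array medians, and the signs of the small Hcn2 and Hcn4 differences turned with it. DRG neuron markers were higher for 8 of 12 genes as deposited (sums of 14664 to 17730 against 11071 to 11867 units) and for 3 with equal medians, and the GAPDH log2 ratio differed by 0.09 (exact permutation test, p = 0.175). Their part was not tested.

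**Figure D2:**
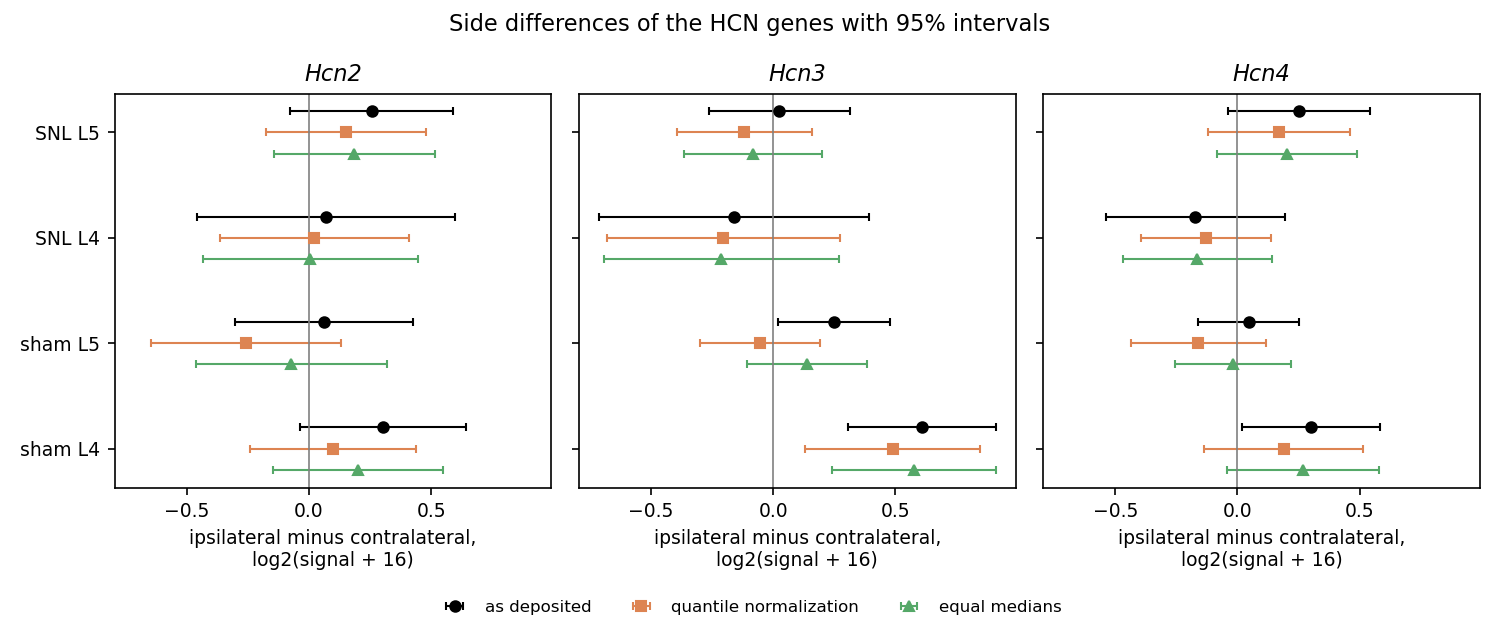
Difference between ipsilateral and contralateral DRGs on the scale log2(signal + 16) for the 3 HCN genes in the 4 comparisons, with 95% intervals of limma (5 rats a side). Colours and marks give the deposited scaling, quantile normalization and scaling to equal array medians. Of the 12 deposited values, those of Hcn3 in both sham comparisons and of Hcn4 in sham L4 have intervals above 0, and only Hcn3 in sham L4 passed the adjusted threshold.

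The differences between these side effects were tested directly in fits of 20 arrays, and none of the 9 passed. At L4 the Hcn3 side difference was 0.77 lower in SNL than in sham rats on the log2 scale, written -0.77 (95% interval -1.42 to -0.12, adjusted p = 0.114, limma), where 14% of all probe sets were called. This value was called on the log2(signal + 1) scale at -2.08 (adjusted p = 0.0452) and in a single limma fit of all 8 groups at -0.77 (adjusted p = 0.0342). The corresponding values were -0.47 for Hcn4 (adjusted p = 0.176) and -0.23 for Hcn2 (adjusted p = 0.701).

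At L5 the side differences of SNL and sham rats differed by 0.20 for Hcn2, -0.22 for Hcn3 and 0.20 for Hcn4 (adjusted p = 0.565, 0.335 and 0.376, limma), with 43.2% of all probe sets called. Within SNL rats the L5 and L4 side differences differed by 0.19 for Hcn2, 0.19 for Hcn3 and 0.42 for Hcn4 (adjusted p = 0.759, 0.760 and 0.220, limma), with 19.2% called. The array names in the sample titles set the 10 arrays of SNL L5 apart from the remaining 30, and these 10 were taken as a second array series. In both of these comparisons array series and group cannot be told apart.

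Ordered by mean log2 level, the 8 groups gave a different order for each gene. Hcn2 ran from sham L4 ipsilateral (19.9 ± 8.09 units, SD, n = 5) to SNL L5 contralateral (6.72 ± 3.81 units). Hcn3 ran from SNL L4 contralateral (27.8 ± 14.3 units) to sham L4 contralateral (5.35 ± 4.71 units). Hcn4 ran from sham L4 ipsilateral (8.44 ± 4.02 units) to SNL L5 contralateral (3.26 ± 3.50 units). None of the 21 pairs of neighbours in these orders passed (exact permutation tests, smallest p = 0.0635, smallest adjusted p = 0.992). Neighbours in an order by mean are close by construction, and 5 arrays a group allow no p under 0.00794. These tests therefore cannot show that neighbouring groups are alike. Pairs that hold an SNL L5 group cross the array series, as do the ends of the Hcn2 and Hcn4 orders.

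The ends of the Hcn3 order are both contralateral L4 ganglia, and the cohorts were therefore compared on the same side after these values had been seen. On contralateral L4 arrays Hcn3 ranged from 14.6 to 49.6 units in SNL rats and from 1.03 to 12.7 units in sham rats, without overlap. The log2 difference was 1.0 ± 0.20 (SE, n = 5 a group, 95% interval 0.58 to 1.43, adjusted p = 0.000386, limma), and the exact permutation test gave the smallest p it allows, 0.00794. In that comparison 63.8% of all probe sets were called and 46.9% did not overlap, so the Hcn3 call is of a common kind there. These contralateral sham arrays also serve in the sham L4 comparison of sides, so its Hcn3 difference of 0.61 and the cohort difference of 1.0 share their lower group.

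Array medians moved with the cohort. They were 48.4 to 50.5 units in SNL L4 contralateral and 30.7 to 32.7 units in sham L4 contralateral ganglia, and the log2 median of probe sets below the median level differed by 0.41. Summed markers also separated the contralateral L4 groups, with 18019 to 19377 against 12849 to 15306 units for DRG neurons, 16196 to 17731 against 10407 to 11975 units for large myelinated neurons and 126 to 170 against 226 to 262 units for muscle. Sums of nociceptor, satellite glial, Schwann cell and blood cell markers were higher in SNL rats without overlap. Those of macrophage and endothelial markers were lower without overlap, and those of fibroblast markers and nerve injury genes overlapped. The part of these shifts in the Hcn3 cohort difference was not tested. With arrays scaled to equal medians the contralateral Hcn3 difference was 0.74 (adjusted p = 0.00301, limma), and under quantile normalization it was 0.59 (adjusted p = 0.0297, limma). On ipsilateral L4 arrays, where 49.1% of all probe sets were called and 34.4% did not overlap, Hcn3 differed by 0.24 between the cohorts (95% interval -0.24 to 0.71, adjusted p = 0.404, limma), and this value turned to -0.05 with equal medians and to -0.10 under quantile normalization. Sides of the same cohort were thus closer in array median than the cohorts were, and Hcn3 overlapped between the cohorts on the ipsilateral side.

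**Figure D3:**
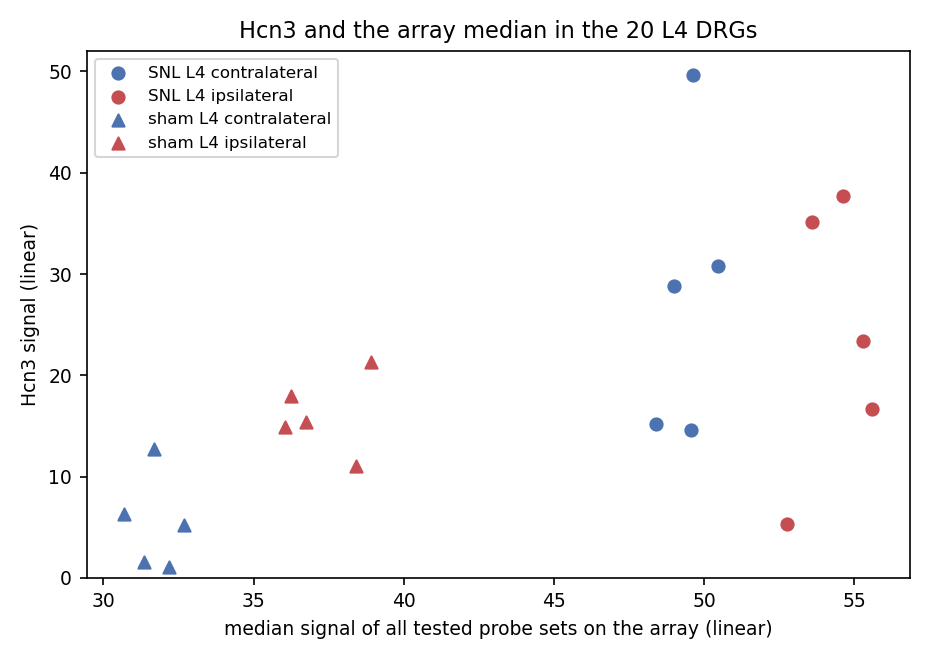
Hcn3 signal against the median signal of all tested probe sets on the same array, both linear, for the 20 L4 arrays. Circles are SNL and triangles sham rats, red ipsilateral and blue contralateral. The sham arrays have medians of 30.7 to 38.9 units and the SNL arrays of 48.4 to 55.6 units, and the 5 sham contralateral arrays lie at 1.03 to 12.7 units of Hcn3.

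Hcn2 was not called between the cohorts on contralateral L4 arrays as deposited, with a log2 difference of -0.00 (95% interval -0.42 to 0.42, adjusted p = 0.989, limma), but under quantile normalization it was lower in SNL rats at -0.46 (adjusted p = 0.0349). On ipsilateral L4 arrays it was -0.24 as deposited (adjusted p = 0.394) and -0.53 under quantile normalization (adjusted p = 0.0294). Hcn4 was 0.14 on contralateral arrays (adjusted p = 0.427) and -0.33 on ipsilateral arrays (95% interval -0.66 to 0.00, adjusted p = 0.0924, limma), which became -0.42 and was called under quantile normalization (adjusted p = 0.0188). Without the ipsilateral array of SNL rat 8 the deposited Hcn4 value was called too, at -0.41 (adjusted p = 0.0427).

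The levels of the members were weakly related to each other. Over the 40 arrays Pearson's r of the log2 levels was 0.16 between Hcn2 and Hcn3, 0.06 between Hcn2 and Hcn4 and 0.18 between Hcn3 and Hcn4, and after removal of the group means it was 0.17, -0.13 and 0.11. The points share rats, array series and array medians. Among 7108 brighter genes, those most like Hcn3 were Klhl42 (r = 0.73, or 0.35 after removal of the group means), Prkce (0.72 and 0.44), Clpb (0.71 and 0.16), Eif4a2 (0.69 and 0.20) and Zfp821 (0.69 and 0.42). Hcn2 came closest to Rpn1 (r = 0.54, or 0.41 after removal of the group means), LOC102554214 (0.53 and 0.43), Plppr3 (0.53 and 0.58), Rrs1-ps9 (0.52 and 0.39) and Taf6 (0.52 and 0.43). Hcn4 came closest to Hoxa9 (r = 0.48, or 0.46 after removal of the group means), Cat (0.46 and 0.15), Ap1s1 (0.45 and 0.34), Eif4g2 (0.44 and 0.29) and Morf4l2 (0.44 and 0.42). These genes were picked as the highest r among 7108, and their r were not tested.

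HCN channels work in complexes, and 12 of 15 listed partner genes were measured. In SNL L5, 4 were called higher and 3 lower, beside 47.2% of all probe sets called, and their median log2 difference was 0.20 against 0.12 for all probe sets. Pex5l encodes TRIP8b, the auxiliary subunit that sets HCN trafficking and cAMP response in neurons, and its brightest probe set was lower in the ligated ganglion. Its signals in rats 4, 8, 9, 18 and 48 were 33.0, 8.30, 28.5, 25.1 and 25.2 in ipsilateral L5 and 66.9, 80.1, 48, 56.8 and 45.8 in contralateral L5, without overlap, where 33.9% of all probe sets did not overlap. The log2 difference was -0.94 ± 0.17 (SE, n = 5, adjusted p = 0.000215, limma).

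Pex5l was also lower in sham L5 at -0.34 and in sham L4 at -0.36 (adjusted p = 0.0199 and 0.0201, limma), and in SNL L4 it was 0.25 (adjusted p = 0.249). A second Pex5l probe set went the other way, at 0.38 in SNL L5, 0.64 in sham L5 and 0.54 in sham L4, all called, so the direction for this gene depends on the probe set. Nedd4l, a ubiquitin ligase that acts on membrane channels, had 1 measured probe set and was lower in SNL L5 (-0.53), sham L5 (-0.44) and sham L4 (-0.39), all called under each scaling. In SNL L5 its means were 68.8 ± 7.42 units ipsilaterally and 107 ± 9.52 units contralaterally (SD, n = 5).

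**Figure D4:**
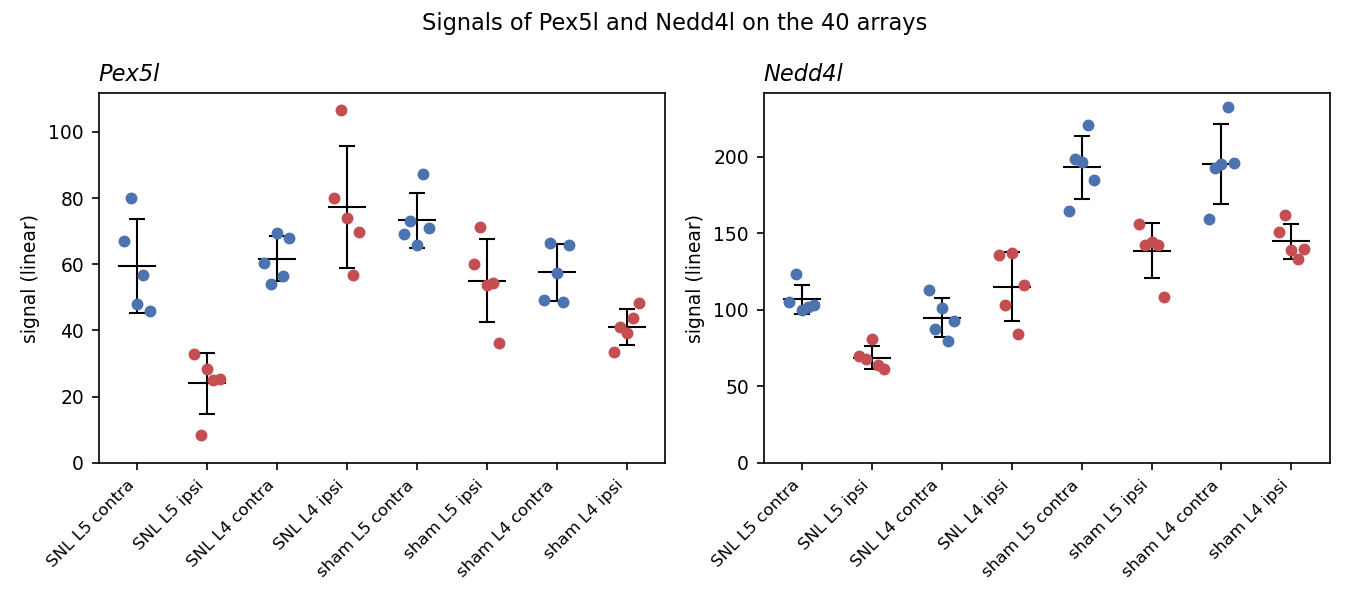
Linear signals of the brightest Pex5l probe set and of Nedd4l on the 40 arrays by group. Points are arrays (blue contralateral, red ipsilateral), bars the mean and SD of 5 rats. In SNL L5 the ipsilateral points of both genes lie under all contralateral ones.

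The other partners moved in several directions. Flna, a cytoskeletal crosslinker, was higher in SNL L5 at 1.15 and in SNL L4 at 0.37, the second lost with equal array medians. Cav1, a caveolar scaffold, was higher in SNL L5 at 0.68 and lower in sham L5 at -0.46 and sham L4 at -0.45. Its other 2 probe sets did not follow it in SNL L5. Of these, 1 was called lower in SNL L5 at -0.57 and higher in sham L5 at 0.27. The other was called lower in SNL L4 at -1.2, where the brightest gave 0.05. It went the same way as the brightest in sham L5 at -0.26, called, and in sham L4 at -0.37, not called. The direction for Cav1 thus depends on the probe set. Vapa, a protein of membrane contact sites, was higher in SNL L5 at 0.27, in sham L5 at 0.46 and in sham L4 at 0.49, and Vapb was lower in SNL L5 at -0.39 and higher in sham L4 at 0.16. Irag2, like Irag1 a regulator of HCN4, was higher in SNL L5 (0.49), Tamalin in sham L5 (0.35), and Flna and Irag1 were lower in sham L5 (-0.19 and -0.33). Of these, the values of Irag2, Tamalin, of Vapa in SNL L5 and sham L5, of Vapb in sham L4 and of Flna in sham L5 lost their call under quantile normalization or equal medians, and with equal medians Vapb in sham L4 turned to -0.06.

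Kcne2, an ancillary subunit, gave 0.29 in SNL L5 and -0.47 in SNL L4, and Apba2 and Cav3 stayed between -0.08 and 0.20 in all 4 comparisons, with no call for any of these 3 genes by their brightest probe set. Other probe sets of Kcne2 were called higher in SNL L5 at 0.33 and 0.47, and another of Apba2 in sham L5 at 0.69. The list had 1 call higher and 0 lower in SNL L4, 2 higher and 5 lower in sham L5, and 2 higher and 3 lower in sham L4, beside 19.1%, 50.3% and 27.1% of all probe sets called. Its medians there were 0.06, 0.01 and -0.07, against 0.07, 0.06 and 0.06 for all probe sets. With equal array medians the counts of higher and lower genes were 2 and 3 in SNL L5, 0 and 1 in SNL L4, 0 and 6 in sham L5 and 1 and 5 in sham L4.

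**Figure D5:**
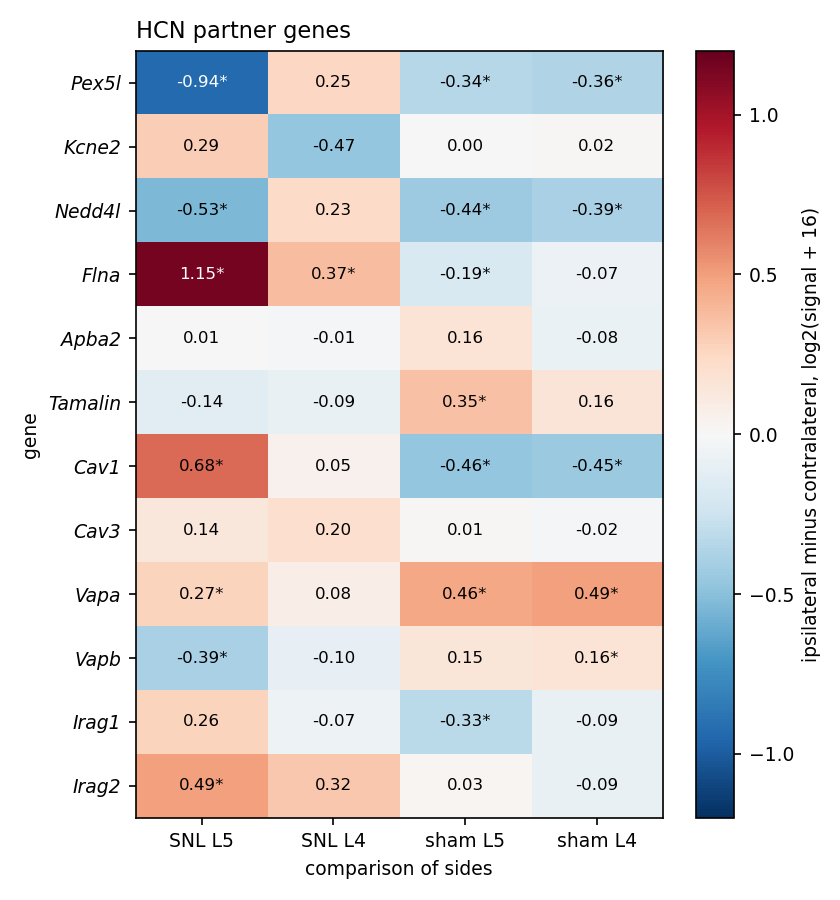
Log2 difference between sides, on the scale log2(signal + 16), of the brightest probe set of the 12 measured HCN partner genes (rows) in the 4 comparisons (columns). Red is higher and blue lower in ipsilateral DRGs, and an asterisk marks an adjusted p under 0.05 in limma. In SNL L5 Flna has the highest value, 1.15, and Pex5l the lowest, -0.94.

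cAMP is the ligand of these channels, and 36 of 39 listed genes of its synthesis, breakdown and effectors were measured. In SNL L5, 10 were called higher and 12 lower, where 47.2% of all probe sets were called, and their median log2 difference was 0.13 against 0.12 for all probe sets. The largest were Rapgef4, a cAMP-activated exchange factor (-1.66), Gnao1 and Gnai1, inhibitory G protein subunits (-1.45 and -0.78), and the phosphodiesterase Pde4d (-1.02), whose other 2 probe sets were not called. Prkaca, the catalytic subunit of protein kinase A, was lower in SNL L5 and SNL L4 at -0.77 and -0.87.

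In SNL L4 3 cAMP genes were called higher and 7 lower, where 19.1% of all probe sets were called. Gnai1 (-0.94), Pde4d (-0.89, with its other 2 probe sets not called), Prkaca and Gnao1 (-0.71) led the list there, beside the gap in RNA integrity given for SNL L4. In sham L5, 13 were higher and 7 lower, against 50.3% of all probe sets called, led by the phosphodiesterases Pde8b (0.99) and Pde4c (0.54), Prkar1a, a regulatory subunit of protein kinase A (0.50), and the adenylyl cyclase Adcy5 (0.50). In sham L4, 6 were higher and 4 lower, against 27.1% called, led by Pde4c (1.09), the cyclase Adcy9 (0.51), Prkar1a (0.49) and Pde4a (0.49). Prkar1a had another probe set called lower in both sham comparisons, at -0.23 in sham L5 and -0.36 in sham L4, so its direction depends on the probe set. Under quantile normalization Pde4c and Adcy5 in sham L5 and Adcy9 and Pde4a in sham L4 lost their calls.

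With equal array medians the cAMP counts became 6 higher and 12 lower in SNL L5, 1 and 10 in SNL L4, 3 and 16 in sham L5 and 4 and 12 in sham L4. Calls over all probe sets moved in the same way, the share of higher calls falling from 64.3% to 40.8% in SNL L5, from 52.9% to 27.5% in SNL L4, from 61.7% to 32.0% in sham L5 and from 63.7% to 26.9% in sham L4, so the splits of the list moved with those of the whole array.

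Of 14 listed channels that share the cyclic nucleotide-binding fold, 13 were measured. Cnga4, a subunit of the olfactory cyclic nucleotide-gated channel, rose in the ligated ganglion from 5.45 ± 4.02 to 94.4 ± 17.1 units (SD, n = 5), a log2 difference of 2.37 (adjusted p = 4.15e-10, limma). It was also higher in sham L5 at 0.71, while a second Cnga4 probe set gave 0.02 and -0.01. Kcnh3, a voltage-gated potassium channel, was called higher in each comparison of sides as deposited (0.46 in SNL L5, 0.75 in SNL L4, 0.63 in sham L5 and 0.62 in sham L4), and its SNL L5 call was lost under quantile normalization and equal medians. Kcnh6 fell in SNL L5 by 0.64. Cngb1, another cyclic nucleotide-gated subunit, was higher in SNL L4 at 0.77, with its other 2 probe sets not called and the call lost with equal medians.

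The related potassium channels Kcnh4 and Kcnh8 were called higher in sham L5 at 0.37 and 0.31, both lost under quantile normalization, and Kcnh1 was lower in sham L4 at -0.28, also lost there. The list of 13 had 2 calls higher and 1 lower in SNL L5, 2 and 0 in SNL L4, 6 and 1 in sham L5 and 1 and 1 in sham L4, beside shares over all probe sets of 47.2%, 19.1%, 50.3% and 27.1%. With equal array medians the sham counts were 3 and 3 at L5 and 1 and 2 at L4.

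Of 21 listed prostanoid, serotonin, adrenergic and adenosine receptors, most of which raise or lower cAMP, 19 were measured. In SNL L5 3 were called higher and 3 lower, beside 47.2% of all probe sets called. They include Adra2a, an adrenergic receptor, at 1.18, with a second probe set at 0.03, the serotonin receptors Htr1d at -1.08 and Htr7 at -0.44, and the adenosine receptor Adora2b at -0.60. Other probe sets of Htr7 gave 0.26 and 0.14 and were not called. In SNL L4 Adra2c (-0.78) and Adora2a (-0.73, with a second probe set at 0.25, not called) were lower and none higher, beside 19.1% called.

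In sham L5, 3 receptors were higher and 2 lower, beside 50.3% called, led by Adra2b (0.54), Htr1f (0.53), Adrb3 (0.37) and Htr1d (-0.35). In sham L4, 4 were higher and 0 lower, beside 27.1% called, and these were Adrb3 (0.50), the prostanoid receptor Ptger3 (0.48), Adra2a (0.44) and Adra2b (0.37). Other probe sets of Ptger3 (0.32), Adra2a (-0.06) and Adra2b (0.002 and 0.02) were not called in sham L4. None of the 4 sham L4 calls and not that of Adrb3 in sham L5 held under quantile normalization. In SNL L5 the counts under that scaling were 1 higher and 7 lower.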

How the data were processed

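RNA of 40 DRGs was measured on Affymetrix rat arrays, 1 array per ganglion. The authors computed linear signal intensity values with the MAS 5 algorithm, scaled to about equal trimmed means, and deposited them. Arrays were grouped by the sample labels, and the same rat gave both sides. No column of another sample was found.

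Signals were turned into log2(signal + 16) and 57 control probe sets left out. Each comparison of sides was fitted to its 10 arrays by limma 3.58.1 under R 4.3.3 (lmFit, then eBayes with a trend on intensity), and differences between comparisons to 20 arrays. P-values were adjusted by Benjamini-Hochberg over 31042 probe sets and called under 0.05. Exact permutation tests used scipy 1.17.1. A gene with several probe sets was represented by the brightest one. Of the probe sets, 20826 carried 1 symbol, 436 several and 9780 none. The number of arrays, 5 a group, limits the precision. The scripts were tested on simulated data.

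The members, the 15 gene lists and the tests were chosen with earlier results of these data known. Text names every member and partner gene, up to 4 called genes of the other pathway lists by size, and the 5 genes most correlated with each member. Rat numbers pair the samples, since the same animal gave them. With group means removed, the sides of a rat had correlations of -0.06 to 0.04 in SNL L5, -0.01 to 0.04 in SNL L4, -0.14 to 0.01 in sham L5 and -0.05 to 0.10 in sham L4. For these mRNA arrays the methods name a t-test and do not state pairing (their miRNA assays used a paired one), so the rat was not in the fit. Alternatives were other offsets, scalings, filters and tests, the rat as a replicate block, a joint fit of the 8 groups, and fits that omit an array.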

Additional observations from a re-analysis of the deposited data

How the results depend on the processing

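Of 597 recomputed values for the 27 results on the members, 579 stayed on the same side of the threshold, 6 lost and 12 gained a call, and 30 uncalled values changed sign. Hcn3 in sham L4 lost its call under quantile normalization (0.49) and in the exact permutation test (0.61 and adjusted p = 0.190). A single difference among the 12 could not keep a call in that permutation test, where no p under 0.00794 is possible. The call was also lost under the methods' t-test with log2 values (0.61) or with linear ones (1.59 as a log2 ratio), whose threshold is p under 0.001. The contralateral L4 cohort difference of Hcn3 also missed the threshold of the methods' t-test, at 1.0 (log2 values) and 2.38 (linear). The difference of Hcn3 between SNL and sham at L4 gained a call with an offset of 1 (-2.08) and in 1 fit of all 8 groups (-0.77). Cohort differences at L4 gained one under quantile normalization for Hcn2 (-0.46 contralaterally, -0.53 ipsilaterally) and for Hcn4 ipsilaterally (-0.42), and for Hcn4 also with equal medians (-0.43) and in the fit of all groups (-0.33). The causes were not tested. Leaving out each array gave 0.17 to 0.38 for Hcn2 and 0.19 to 0.35 for Hcn4 in SNL L5, 0.17 to 0.33 for Hcn3 in sham L5, 0.20 to 0.43 for Hcn2 and 0.53 to 0.72 for Hcn3 in sham L4, 0.84 to 1.12 for the contralateral cohort difference of Hcn3 and -0.41 to -0.27 for the ipsilateral one of Hcn4. With the rat as a replicate block Hcn3 in sham L4 stayed called at 0.61 (adjusted p = 0.00444, limma), and no member's call changed. The cohort comparisons, chosen after seeing the data, allow no such block. No member passed the filter on dim probe sets and none has another probe set, so these alternatives gave no value. The low signals limit what can be seen for all 3 genes.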
